A study of Mus musculus with 14 samples.

Results

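The cytosolic ribosomal protein genes were examined in 14 mouse embryonic stem (ES) cell lines. Members were taken by symbol, as every gene named *Rpl* or *Rps* with a number (and at most a letter a, x or l and a digit after it) together with *Rplp0*, *Rplp1*, *Rplp2* and *Rpsa*, with a mean signal of at least 10 over the lines. The rule found 83 of the 23298 genes in the deposited table, 51 of the large and 32 of the small ribosomal subunit, and no gene found by symbol fell under the mean of 10. The members nearest to that limit were *Rpl3l*, with a mean signal of 34.7, and *Rpl26*, with 59.0.

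The ES lines were derived from blastocysts of reciprocal crosses between C57BL/6J (B) and CAST/EiJ (C) mice, with the maternal strain written first, and each line came from its own embryo. There were 3 BC XX, 3 BC XY, 2 BC XO, 3 CB XX and 3 CB XY lines, and the XO lines had lost a sex chromosome spontaneously. All lines were grown in serum and leukemia inhibitory factor on feeder fibroblasts, and carried no engineered allele. Feeders were removed in 2 consecutive steps before total RNA was taken, so that RNA of remaining feeders could still enter a library. The CB XX columns could not be tied to the numbers of the lines, and these lines are called CB XX a, b and c. In bulk RNA of this kind, fewer cells with a transcript and less transcript per cell cannot be told apart.

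The values are reads per gene that the authors scaled to a common depth, called signal here, and the sums of the lines lay between 28150946 and 30657803. Low values came in steps, which taken as 1 read correspond to 11903706 to 69646216 reads per line. Markers of ES cells were present in every group, with 10 of 10 genes at a signal of 10 or more in every line and a mean log2 level of 12.37 to 13.58. The mean log2 level of the 20 fibroblast markers was 10.20 to 11.43 in BC XX and 7.81 to 9.75 in the other 11 lines. Single markers such as *Col6a3* and *Loxl1* overlapped between these lines. *Uty*, on the Y chromosome, had a signal of 945 to 2088 in the BC XY lines and 1149 in CB XY 1, but only 19.6 in CB XY 2 and 45.4 in CB XY 3, against 12.8 to 195 in XX and XO lines. CB XY 2 and 3 are XY lines by their labels only, and counts of called genes that rest on them are given with and without them.

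Ribosomal proteins coat the ribosomal RNA of the 40S and 60S subunits and are needed in matched amounts, because a subunit is assembled from a single copy of most of them. Their mRNAs belong to the terminal oligopyrimidine (TOP) class, which starts with a C followed by a run of pyrimidines, and through that run mTOR and the RNA-binding protein Larp1 control their translation. The genes lie scattered over the genome, and most have left many processed pseudogenes, reverse-transcribed copies without introns. *Rps4x*, *Rpl10*, *Rpl36a* and *Rpl39* lie on the X chromosome, which is present in 2 active copies in undifferentiated female ES cells.

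The 82 members that could be placed lay on 19 chromosomes, with 14 on chromosome 7, 8 on chromosome 17 and 4 on the X chromosome. *Rpl41* had no match in the annotation. RefSeq promoter windows (GRCm38.p6, 250 bases before to 50 after the annotated start) were found for 63 of the 83 members, in 75 windows. The windows around the starts of the X-linked members and of *Rpl39l*, an autosomal copy of *Rpl39*, are shown because the differences between XX and XY lines turn on these genes, followed by *Rps26* and *Rps27*, which led differences within and between the crosses. Each is 100 bases, read 5′ to 3′ on the strand of the gene with the annotated start in the middle, and capitals mark the longest run of C and T. The windows lie at chrX:102189342-102189441 (minus strand), chrX:74270766-74270865 (plus), chrX:134585604-134585703 (plus), chrX:37085173-37085272 (minus), chr16:10170178-10170277 (plus), chr10:128626457-128626556 (minus) and chr3:90213599-90213698 (minus), in the order printed.
Rps4x: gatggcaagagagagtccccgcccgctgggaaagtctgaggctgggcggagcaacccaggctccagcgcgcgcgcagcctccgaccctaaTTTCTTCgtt
Rpl10: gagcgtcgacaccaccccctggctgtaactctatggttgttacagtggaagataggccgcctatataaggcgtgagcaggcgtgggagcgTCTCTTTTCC
Rpl36a: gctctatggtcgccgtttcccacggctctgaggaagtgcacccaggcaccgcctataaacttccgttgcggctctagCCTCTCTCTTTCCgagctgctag
Rpl39: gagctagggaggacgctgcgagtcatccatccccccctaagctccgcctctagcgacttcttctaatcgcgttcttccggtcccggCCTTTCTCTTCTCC
Rpl39l: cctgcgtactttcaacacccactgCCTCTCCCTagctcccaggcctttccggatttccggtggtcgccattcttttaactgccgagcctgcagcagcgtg
Rps26: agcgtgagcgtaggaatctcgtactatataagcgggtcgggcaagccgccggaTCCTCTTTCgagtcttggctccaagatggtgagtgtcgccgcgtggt
Rps27: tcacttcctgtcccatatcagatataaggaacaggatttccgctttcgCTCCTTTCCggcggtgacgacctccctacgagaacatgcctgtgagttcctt

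The longest pyrimidine run was 13 bases in the *Rpl36a* window and 14 in that of *Rpl39*, 10 in *Rpl10*, 7 in *Rps4x* and 9 in *Rpl39l*, where it lay before the annotated start. The runs of *Rpl10* and *Rpl39* end at the edge of the window and may be longer. A run of at least 10 pyrimidines within 50 bases of the start was present in 64.0% of the 75 member windows and in 18.1% of all 32851 windows of the table, and the median longest run was 10 against 7 bases. Counting both strands over the whole window, the letters CTTTCC were found in 49.3% of member windows and 26.6% of all, CCGGAAG in 36.0% and 8.86%, and GGGCGG in 60.0% and 35.7%. CTTTCC consists of pyrimidines and overlaps the runs counted above.

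The family took a large and variable part of the measured RNA. Of the 100 genes with the highest mean signal, 34 were members, 76 of the 83 members had a mean of 5000 or more, and the median member had 25964. The members together made up 9.29%, 7.23% and 5.81% of the signal in BC XX lines 1, 2 and 3, 8.96%, 8.12% and 8.75% in the BC XY lines, 8.02% and 8.43% in the BC XO lines, 8.21%, 7.95% and 8.19% in the CB XX lines and 9.21%, 6.98% and 7.46% in the CB XY lines. The groups overlapped, and BC XX line 3, with the highest level of fibroblast markers, had the lowest share. BC XX line 1, with a marker level above all lines outside BC XX, had the highest share. Large subunit members held 58.4% to 60.8% of the family's signal in every line, so the division between subunits varied far less than the total. Mitochondrial ribosomal proteins, which serve the separate ribosome of that organelle, made up 0.295% to 0.408% of the signal.

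**Figure D1:**
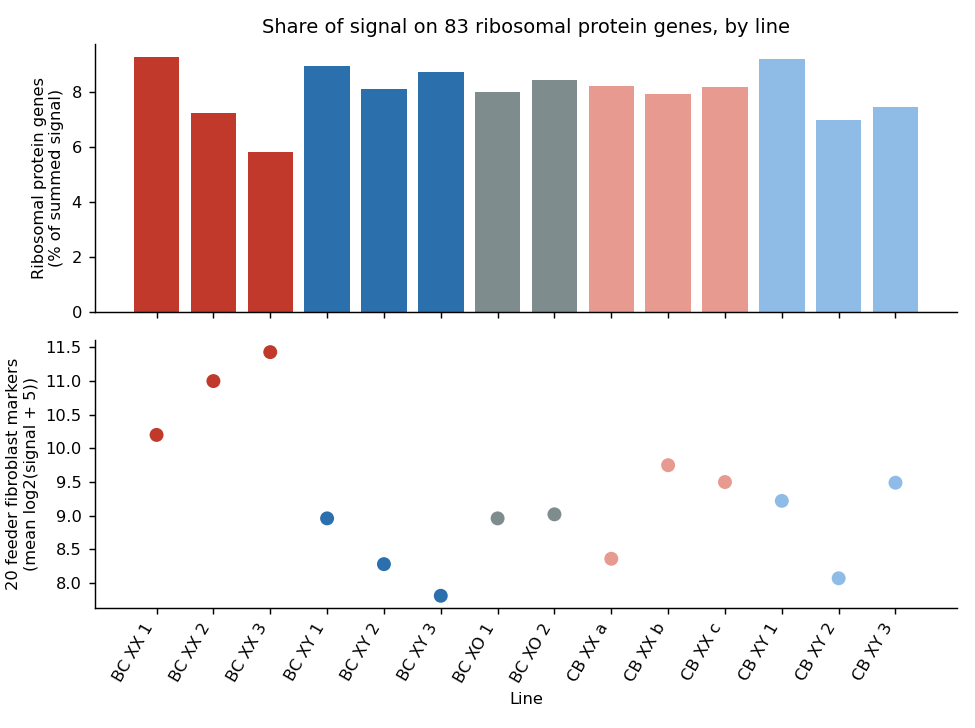
The upper panel gives the percent of each line's summed signal on the 83 ribosomal protein genes, and the lower panel the mean log2(signal + 5) of 20 feeder fibroblast markers, with lines on the shared x axis and colours for groups. The share runs from 5.81% in BC XX 3, where the marker level is highest at 11.43, to 9.29% in BC XX 1. There the marker level is 10.20, above the 7.81 to 9.75 of the lines outside BC XX.

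Levels of different genes were compared per kilobase of coding sequence. *Rps12* was highest with a mean signal of 126384 per kb, followed by *Rpl39* with 113351 and *Rps24* with 105368, all 3 of them structural proteins of the subunits. The median member had 53198 per kb, and the quartiles were 41575 and 71424. *Rpl3l*, a paralog of *Rpl3* known from skeletal and heart muscle, was lowest with 48.2 per kb, below *Rpl26* with 136 and *Rps27* with 531 per kb. *Rpl10l*, a paralog of *Rpl10* known from the testis, had 825, *Rpl30* 1753 and *Rpl39l* 2026 per kb, and every other member was at 5993 or more.

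*Rpl26*, *Rpl30* and *Rps27* encode ordinary subunit proteins, and their low levels stood beside sequence shared with copies. Of all 50-base windows in the coding sequence, 87.3% of *Rpl26*, 83.1% of *Rpl30* and 100% of *Rps27* occurred exactly elsewhere in the mm9 genome. Reads in these libraries were 50 bases long, and how reads that match several places were counted is not given in the sources used here. Over the 82 members with a coding sequence, 29 had every window elsewhere and 58 at least 80%, while *Rpl39l* and *Rpl3l* were among those with none. High sharing was also found in members with high levels, such as *Rps12*, *Rpl10* and *Rpl36a*. These had 100% of windows elsewhere and ranked 1, 15 and 26 per kb. The part of shared sequence in the low values was not tested.

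Some members varied between lines of the same group by more than the rest. The SD of log2 values within groups had a median of 0.27 over the members, and of 0.21 over the 740 genes at or above the 10th percentile of the members' mean signal. It was smallest for *Rps24* (0.10), *Rpl23* (0.11) and *Rpl5* (0.12), and largest for *Rpl26* (1.64), *Rps16* (1.33) and *Rpl34* (0.88). *Rps16*, a small subunit protein, fell into low and high lines that cut across groups. Its signal was 997, 3189 and 2385 in BC XX, 1780, 14183 and 14540 in BC XY, 21448 and 2520 in BC XO, 16509, 12470 and 2979 in CB XX and 23962, 22669 and 16654 in CB XY lines. It passed the test in no comparison, with the lowest adjusted p of 0.0570 for CB against BC (limma). Of the 50-base coding windows of *Rps16*, 100% occurred exactly elsewhere in mm9. The part of this sharing in its values was not tested.

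*Rpl34* was low in a single line. Its signal was 1351 in CB XY 1 and 9207 to 19567 in the other 13 lines, while the row of the pseudogene *Rpl34-ps1* on chromosome 6 held 16074 in CB XY 1 and 94.6 to 1846 elsewhere. The sum of both rows was 17425 in CB XY 1, within the 9405 to 20284 of the other lines. *Rpl26* was listed at 0 in CB XY 2 and had 321 in CB XY 1 and 226 in CB XX a against 10.1 to 34.7 in the other 11 lines.

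The first comparison asked whether members differ between XX and XY lines. In the 6 XX against 6 XY lines, 4 of 83 members passed an FDR of 0.05, all of them higher in XX, against 5.21% of the 15311 genes tested (3.21% higher). The called members were 3 of the 4 X-linked ones and, of the 79 others, *Rpl39l*. Of all X-linked genes tested, 227 of 566 passed and 226 of these were higher in XX (128 of 581, with 127 higher, without CB XY 2 and 3), so that sharing this direction is not particular to the family. The median log2 difference was 0.60 for the X-linked members, 0.65 for all X-linked genes and -0.18 for the other members.

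*Rps4x* encodes a protein of the 40S subunit and lies at chrX:99380280-99384733 (mm9). Its signal was 100304, 75305 and 68458 in BC XX and 76315, 76041 and 90760 in CB XX lines, and 72136, 57634 and 61187 in BC XY and 44984, 37509 and 45672 in CB XY lines. BC XX 3 lay below BC XY 1, and the CB groups did not overlap. The mean was 81197 ± 11866 (SD, n = 6) in XX and 53187 ± 12747 (SD, n = 6) in XY lines, with a log2 difference of 0.63 ± 0.16 (SE, limma adjusted p = 0.0341).

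*Rpl10*, whose protein joins the 60S subunit late and completes it for translation, lies at chrX:71516151-71518474 (mm9). Its signal was 79146, 53235 and 42632 in BC XX, 64493, 68926 and 65475 in CB XX, 48942, 41910 and 41941 in BC XY and 41352, 30074 and 39904 in CB XY lines. Only BC XX 3 overlapped the XY lines, and the log2 difference was 0.60 ± 0.15 (SE, limma adjusted p = 0.0376). *Rpl36a*, a 60S protein at chrX:131120193-131122601 (mm9), had 31275, 23006 and 20458 in BC XX, 24253, 23768 and 27081 in CB XX, 19916, 17160 and 18324 in BC XY and 16682, 12671 and 14945 in CB XY lines. No XX line of *Rpl36a* overlapped an XY line, and the log2 difference was 0.59 ± 0.13 (SE, limma adjusted p = 0.0197).

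*Rpl39*, the smallest of these proteins and part of the 60S exit tunnel, lies at chrX:34622515-34625397 (mm9). Its signal was 26009, 12356 and 22599 in BC XX, 18054, 18470 and 25937 in CB XX, 18456, 15248 and 17848 in BC XY and 15230, 10519 and 14602 in CB XY lines. BC XX 2 was below 5 of the 6 XY lines, and with a log2 difference of 0.40 ± 0.19 (SE, limma adjusted p = 0.212) the gene did not pass. In the BC XO lines, with a single X chromosome, the signal was 49618 and 53781 for *Rps4x*, 37903 and 41855 for *Rpl10*, 15780 and 17443 for *Rpl36a* and 12868 and 14603 for *Rpl39*. All of these XO values lay below every BC XX value except that of *Rpl39* in BC XX 2.

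**Figure D2:**
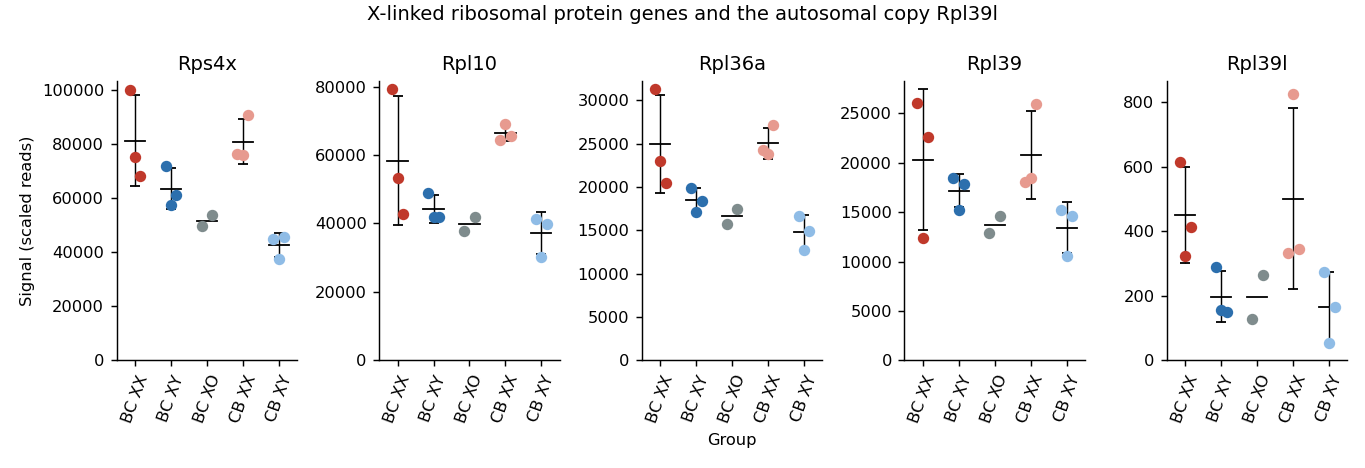
Signal (scaled reads, linear axes from 0) of the 4 X-linked ribosomal protein genes and of *Rpl39l* in each line, by group, with black lines at group means and bars of 1 SD for groups of 3 lines. XX lines lie above XY and XO lines, without overlap for *Rpl36a* (lowest XX 20458, highest XY 19916) and *Rpl39l* (324 and 289).

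The call of *Rps4x*, *Rpl10* and *Rpl36a* depended on which lines entered. Without the lines labelled CB XY 2 and 3 the log2 differences were 0.47, 0.49 and 0.46 and none of the 83 members passed (limma adjusted p = 0.146, 0.149 and 0.0944). With the fibroblast marker level as a covariate they were 0.70, 0.74 and 0.65, and again none passed (adjusted p = 0.104, 0.0701 and 0.0652). The share of all genes that passed was 2.01% without CB XY 2 and 3 and 2.36% with the covariate. Of 19 fibroblast markers 1 was called higher in XX, and all 19 had a log2 difference above 0 with a median of 1.21. Their part in these results was not tested. *Rpl36a* passed without any single line, while *Rps4x* reached an adjusted p of 0.0840 and *Rpl10* of 0.0895 without BC XX 1.

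Within the family the separation was clearer. A share of the family divides out its level in a line, but not a shift that differs between members. As percent of the summed signal of the 79 members that are not X-linked, *Rps4x* had 3.27% to 4.52% in XX, 1.72% to 2.84% in XY and 2.16% to 2.27% in XO lines. *Rpl10* had 2.76% to 3.35% in XX, 1.54% to 1.99% in XY and 1.65% to 1.77% in XO lines, and *Rpl36a* had 1.04% to 1.35%, 0.639% to 0.784% and 0.688% to 0.738%. For these 3 genes every XX line was above every XY and XO line in both crosses, with ratios of XX to XY of 1.75, 1.71 and 1.70. An exact two-sided permutation test over the 12 lines gave p = 0.00216 for each, the smallest it can give (adjusted p = 0.00271 over 5 tests, with n = 6 per group). *Rpl39* had 0.655% to 1.49% in XX and 0.540% to 0.736% in XY lines, a ratio of 1.49 (exact permutation p = 0.0173, adjusted p = 0.0173). Without the lines labelled CB XY 2 and 3, the ratios were 1.68, 1.71 and 1.67 for *Rps4x*, *Rpl10* and *Rpl36a* (exact permutation p = 0.00476 each, the smallest possible with 6 and 4 lines) and 1.45 for *Rpl39* (exact permutation p = 0.0571). The coding GC content is 47.7% in *Rps4x*, 51.1% in *Rpl10*, 48.7% in *Rpl36a* and 45.1% in *Rpl39*, against a family median of 52.7%. Over 82 members the log2 difference of XX from XY lines had a Spearman's rho with GC content of -0.68. The part of GC content in the ratios was not tested.

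*Rpl39l* lies at chr16:10170319-10175004 (mm9) and encodes a near copy of the *Rpl39* protein that is known from the testis. Its signal was 614, 324 and 414 in BC XX, 334, 827 and 344 in CB XX, 289, 155 and 149 in BC XY, 275, 54.0 and 166 in CB XY and 128 and 266 in BC XO lines. No XX line overlapped an XY or XO line, and the log2 difference of 1.45 ± 0.36 (SE, limma adjusted p = 0.0341) was larger than that of any X-linked member. None of the 50-base windows of its coding sequence occurs exactly elsewhere in mm9. Its signal was 1.33% to 4.48% of that of *Rpl39* in XX and 0.514% to 1.80% in XY lines, which overlap. With the fibroblast marker level as a covariate the log2 difference was 1.14 (adjusted p = 0.248), and without the lines labelled CB XY 2 and 3 it was 1.09 (adjusted p = 0.0993).

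Within the CB cross, 3 of 83 members passed, all higher in XX, against 3.57% of 16261 genes (2.11% higher). They were the X-linked genes *Rps4x* (log2 difference 0.92 ± 0.16 SE, limma adjusted p = 0.00785), *Rpl10* (0.85 ± 0.19, adjusted p = 0.0277) and *Rpl36a* (0.77 ± 0.16, adjusted p = 0.0193). Of the 79 members that are not X-linked, 43 were above 0 and none passed, with a median of 0.02. Against the single line CB XY 1, without the lines labelled CB XY 2 and 3, the 3 genes had log2 differences of 0.84, 0.68 and 0.58 and did not pass (limma adjusted p = 0.136, 0.324 and 0.309, where CB XY 1 is assumed to vary like the lines of the other groups).

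Within the BC cross most members had lower mean values in XX lines. Of the 79 members that are not X-linked, 1 was above 0 (*Rpl39l*), with a median log2 difference of -0.37, against a median of -0.04 over all genes. The lines did not share this: the median deviation of the 83 members from their means over the 14 lines (log2) was 0.18 in BC XX 1, -0.18 in BC XX 2 and -0.59 in BC XX 3, and 0.06 to 0.21 in the BC XY lines. In this contrast 3 of 83 members passed, all lower in XX, against 5.70% of genes (1.24% lower). The X-linked members had log2 differences of 0.18 to 0.41, and none passed.

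The called members were *Rps26*, *Rps28* and *Rpl3*, both of the former being 40S proteins near the mRNA exit and the latter a 60S protein that reaches toward the peptidyl transferase center. *Rps26* had a signal of 10467, 9256 and 4483 in BC XX, 15247, 15080 and 13999 in BC XY and 18818 and 16687 in BC XO lines, a log2 difference from XY of -0.96 ± 0.26 (SE, limma adjusted p = 0.0442). *Rps28* had 6650, 5997 and 4188 in BC XX, 9230, 11046 and 12386 in BC XY and 11699 and 9559 in BC XO lines, a difference of -0.97 ± 0.20 (adjusted p = 0.0147). *Rpl3* had 63463, 56456 and 44013 in BC XX and 76284, 73382 and 88803 in BC XY lines, a difference of -0.55 ± 0.15 (adjusted p = 0.0455). For each of the 3 genes all BC XX lines lay below all BC XY lines, and BC XX 3 was lowest. Against the BC XO lines, *Rps26* (-1.23 ± 0.29, adjusted p = 0.0349) and *Rps28* (-0.94 ± 0.23, adjusted p = 0.0370) passed, 2 of 83 members against 4.66% of genes (1.61% lower). These contrasts share the BC XX lines. *Rps26* and *Rps28* are GC-rich, with 55.9% and 57.0% in the coding sequence. Spearman's rho between log2 difference and GC content over 82 members was -0.73 against BC XY and -0.82 against BC XO lines. Over all genes it was -0.30 and -0.42. After the GC correction described below, 4 of 83 members passed against BC XY lines, where 6.28% of genes did. They were *Rps28* (-0.79, limma adjusted p = 0.0109), *Rps26* (-0.82, 0.0344), *Rpl3* (-0.55, 0.0394) and *Rpl28* (-0.63, 0.0399). Against BC XO lines *Rps26* (-1.04) and *Rps28* (-0.69) passed, where 3.15% of genes did. The part of GC content was not tested.

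Fibroblast markers were higher in the BC XX lines, while most members had lower mean values there. BC XX 1 had a marker level of 10.20 and a median deviation of the members of 0.18. Of 20 markers 14 were higher in BC XX than in BC XY lines, with a median log2 difference of 2.27, and their summed signal was 117176 to 285937 in BC XX and 45873 to 58712 in BC XY lines, with no marker at 0 in a line. With the marker level as a covariate the median of the members that are not X-linked was -0.12, *Rps26*, *Rps28* and *Rpl3* had log2 differences of -0.29, -0.39 and -0.17, and none of the 83 members passed (limma adjusted p = 0.915, 0.825 and 0.912), but then 0.0492% of all genes did. Without BC XX 3 the median was -0.18 and no member passed, against 1.41% of all genes. Without BC XX 1 there were 21 calls among the 83 members, all lower in XX, where 5.99% of all genes passed in either direction.

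The test of the difference between the crosses found no member with an unequal XX to XY difference (limma, 0 of 83, with 7 at an unadjusted p under 0.05), where 0.0738% of all genes passed. Over all genes, 1471 of 16261 were under that unadjusted p. The log2 value of this contrast was above 0 in 81 members, with a median of 0.41, and it was 0.20 with the marker level as a covariate. Neither did BC XO and BC XY lines differ in any member (0 of 83 called, 0 at an unadjusted p under 0.05, against 0.00615% of genes). Among all 16261 genes, 242 were under that unadjusted p. The X-linked members had log2 differences of -0.32 to -0.15 between XO and XY lines.

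**Figure D3:**
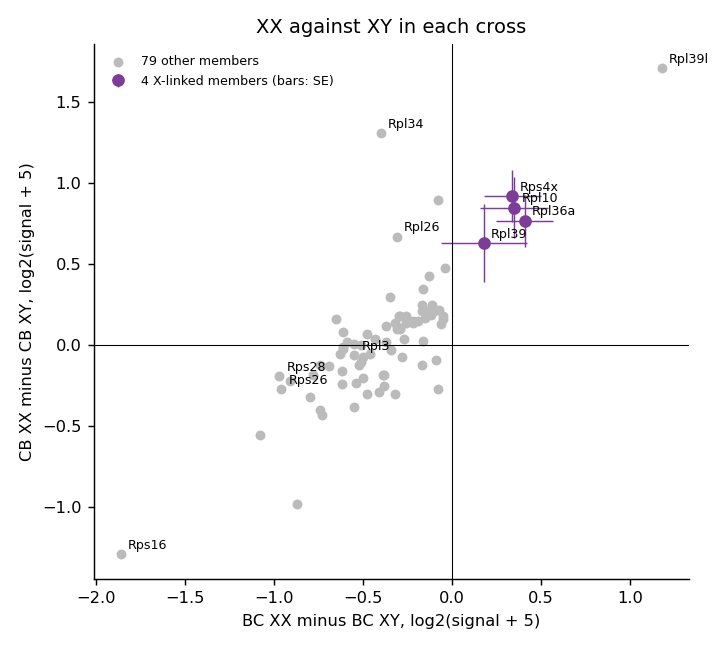
Log2 difference of XX from XY lines in the BC cross (x axis) and in the CB cross (y axis) for each of 83 ribosomal protein genes, on the log2(signal + 5) scale, with the 4 X-linked members in purple (bars of 1 SE). The X-linked members and *Rpl39l* are the only ones above 0 in both crosses, and most others lie at or left of 0 on the x axis.

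The reciprocal crosses share their autosomal genotypes and differ in the parent that gave each strain's genome. Between the mean of the CB and the mean of the BC lines (XX and XY), 18 of 83 members passed, which is 21.7% against 16.0% of 16261 genes, with 7 higher in CB (9.22% of genes) and 11 lower (6.80% of genes). The members higher in CB were *Rps27* (log2 difference 2.21), *Rpl36* (1.45), the stalk proteins *Rplp1* (1.33) and *Rplp2* (1.16), *Rpl13* (0.83), *Rpl10l* (0.71) and *Rps26* (0.60). Lower in CB were *Rps23* (-0.47), *Rps3a1* (-0.43), *Rpl21* (-0.42), *Rps24* (-0.39), *Rpl9* (-0.39) and 6 others with -0.38 to -0.31. The median over the family was 0.04.

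*Rplp1*, which forms with *Rplp2* and *Rplp0* the flexible stalk that binds translation factors, had a signal of 19744, 12566 and 6441 in BC XX, 20426, 19617 and 18128 in BC XY, 48455, 39039 and 18364 in CB XX and 59498, 37347 and 37869 in CB XY lines (SE of the difference 0.26, limma adjusted p = 0.00748). *Rplp2* had 7578, 5129 and 2457 in BC XX, 7714, 6967 and 8374 in BC XY, 15728, 13919 and 6957 in CB XX and 18233, 14233 and 13513 in CB XY lines (SE 0.24, adjusted p = 0.00952). In both genes CB XX c was at the level of the BC XX and XY lines and the other 5 CB lines were above them. The BC XO lines, outside this comparison, had 28908 and 26974 for *Rplp1* and 12233 and 10385 for *Rplp2*. These values lay between CB XX c and the other 5 CB lines. *Rpl36*, a 60S protein, was 1069 to 6003 in the BC XX and XY lines and 5303 to 16688 in the CB lines (SE 0.32, adjusted p = 0.0119), and again CB XX c was the lowest CB line. Its signal was 8640 and 7492 in the BC XO lines, above CB XX c. *Rps27* was low throughout, with 36.9, 34.8 and 11.8 in BC XX, 52.3, 52.3 and 47.0 in BC XY, 197, 139 and 80.1 in CB XX and 776, 147 and 153 in CB XY lines (SE 0.39, adjusted p = 0.00449), and no CB line overlapped these BC lines. The BC XO lines, which this comparison does not use, had 82.5 and 64.1, so that BC XO 1 was above CB XX c.

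*Rps23*, a protein of the decoding center, was lower in CB. It had 24332, 20103 and 20514 in BC XX, 25906, 21214 and 22535 in BC XY, 15210, 15940 and 21595 in CB XX and 15860, 14778 and 14571 in CB XY lines (SE 0.10, limma adjusted p = 0.0118), and CB XX c reached the BC level. *Rpl13*, on chromosome 8, had 11810 to 25122 in the BC XX and XY lines, 37844, 36088 and 30692 in CB XX and 56212, 28662 and 31884 in CB XY lines, without overlap (SE 0.18, adjusted p = 0.0105). The median of all genes on chromosome 8 was 0.33 above its mean over lines (log2) in CB XY 1 and 0.26 in CB XX c, and -0.21 to 0.04 in the other lines. Without these 2 lines 22 of 83 members passed, 16 of them among the 18, against 18.7% of all genes.

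The direction of differences went with base composition, between the crosses as in other comparisons. The coding GC content was 50.8% to 61.6% (median 58.2%) in the 7 members higher in CB, 45.9% to 50.3% (median 48.4%) in the 11 lower and 39.9% to 59.5% (median 53.2%) in those not called. Spearman's rho between the log2 difference and GC content was 0.74 over 82 members and 0.53 over 14595 genes, a relation across genes that share the same libraries. Over the members it was 0.69 without CB XY 2 and 3, and it was -0.68 for XX against XY, -0.58 within CB and 0.78 for BC XO against BC XY lines. Line by line, the rho of a member's deviation with GC content was -0.85 to -0.50 in the BC XX, -0.38 to -0.13 in the BC XY and 0.61 to 0.70 in the CB XY lines. The lines of a cross did not share its sign, since it was 0.65 and 0.36 in the BC XO lines and 0.48, 0.22 and -0.46 in CB XX a, b and c. After a smooth curve of GC content had been taken off each line, a correction chosen after seeing the data, 6 of the 18 members passed and no others: *Rps27* (2.30), *Rplp1* (1.03), *Rplp2* (0.96), *Rpl36* (0.95), *Rpl13* (0.51) and *Rps23* (-0.36), with limma adjusted p-values of 0.00543 to 0.0452. The other 12 kept the sign of their difference, and all were smaller, such as *Rpl10l* with 0.36, *Rps24* with -0.18, *Rpl9* with -0.24 and *Rps3a1* with -0.24. Of all genes, 7.05% passed after this correction. With the correction and without CB XY 2 and 3, CB XY 1 alone stands for the CB XY lines. *Rps27*, *Rpl13* and *Rpl34* then had log2 differences of 3.09, 0.78 and -1.66. No value is given here for *Rplp1*, *Rplp2*, *Rpl36* and *Rps23* in this setting. Their differences are therefore not shown to hold in it. CB XY 1 was the highest XY line for *Rps27* and *Rpl13* and the lowest of all lines for *Rpl34*. Between XX and XY lines the GC correction with all lines left *Rps4x*, *Rpl10* and *Rpl36a* called (0.54, 0.58 and 0.52), but not *Rpl39l* (1.27, limma adjusted p = 0.0574). There 5.48% of all genes passed.

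**Figure D4:**
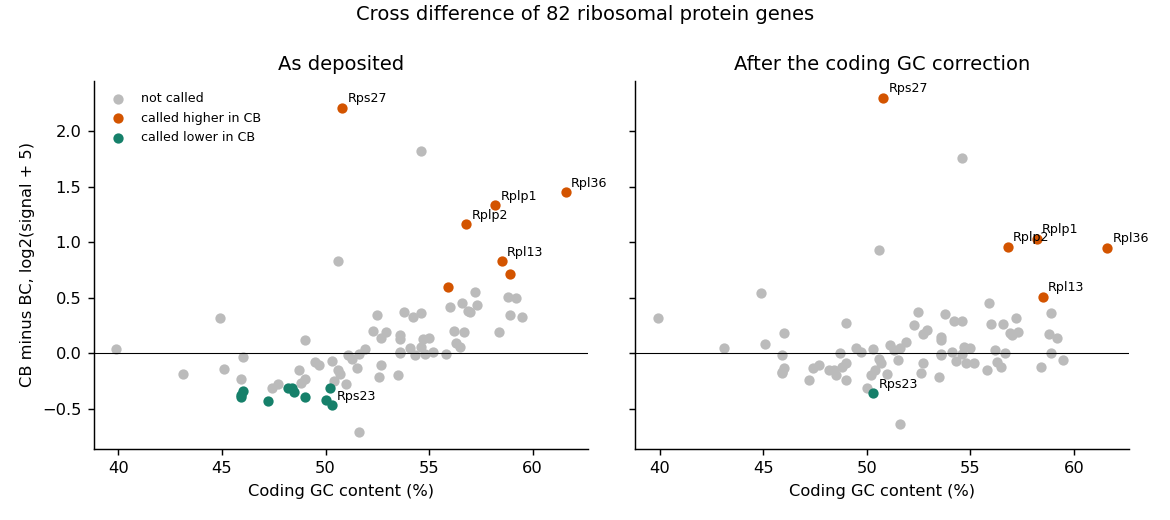
CB minus BC difference on the log2(signal + 5) scale against the GC content of the coding sequence (percent) for 82 ribosomal protein genes, as deposited (left) and after the GC correction (right), with members called higher in CB in orange and lower in green. Of the 18 called members on the left, 6 remain on the right.

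**Figure D5:**
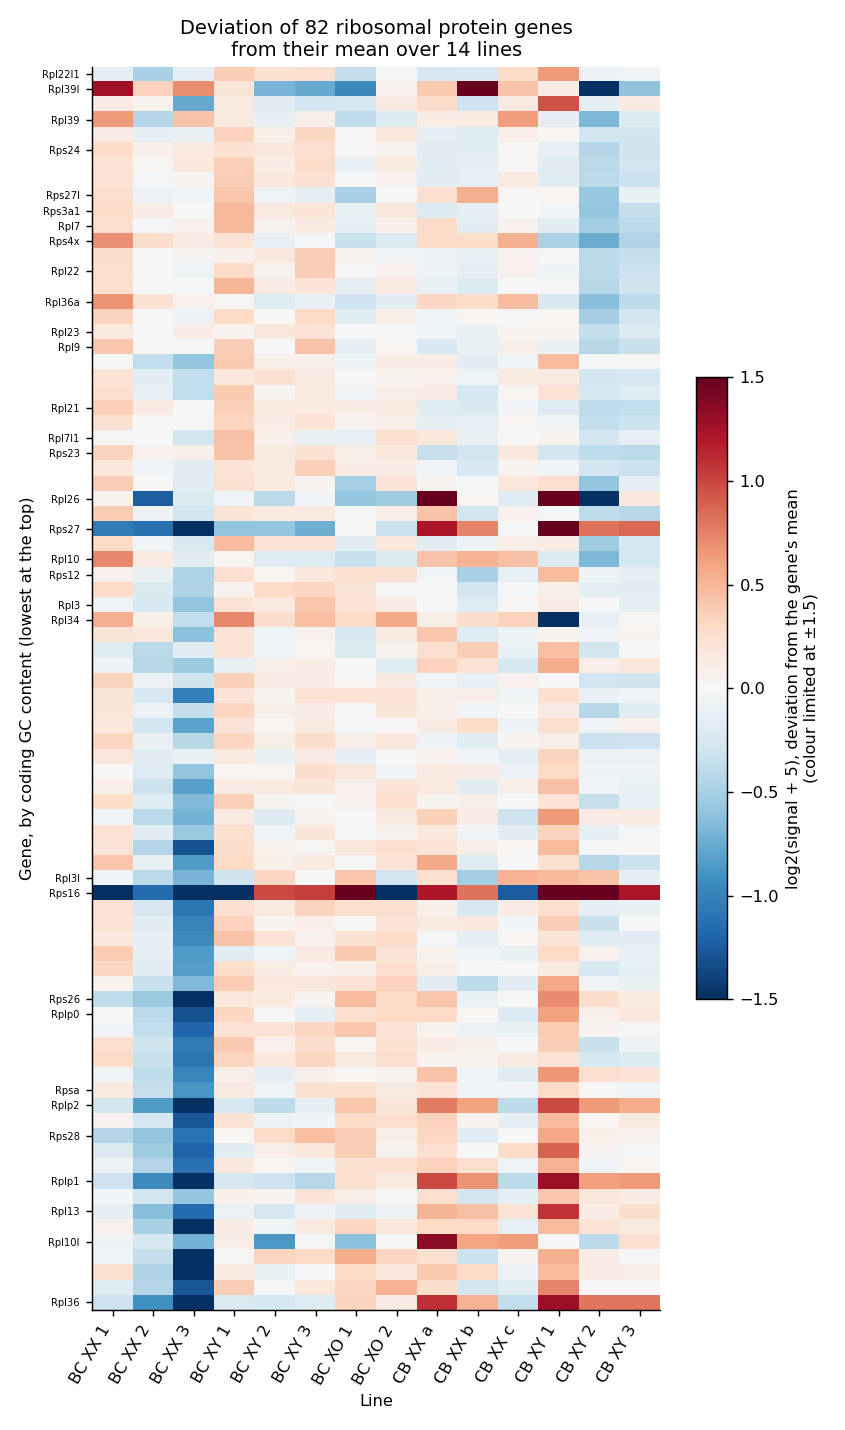
Deviation of log2(signal + 5) from the gene's mean over 14 lines for 82 ribosomal protein genes (rows, by coding GC content with the lowest at the top) in each line (columns), with the colour limited at ±1.5 and names only on rows of members picked by the naming rule. GC-rich members are low in BC XX 3 and high in CB XY 1, *Rps16* alternates between lines, and *Rpl34* is low in CB XY 1.

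Other line differences moved with the cross. Of 10 ES cell markers 4 were higher in CB, and of 20 fibroblast markers 5 were lower, with median log2 differences of 0.41 and -0.73 (1 of 10 and 1 of 20, with 0.34 and -0.51, without CB XY 2 and 3). With the fibroblast marker level as a covariate 8 of the 18 members passed, where 5.95% of all genes did. Without the lines labelled CB XY 2 and 3 there were 7 calls, 4 of them among the 18 (*Rps27*, *Rplp1*, *Rplp2* and *Rpl13*), and 2.96% of all genes passed. The share of GC content and of these line differences in the remaining calls was not tested.

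Of the 6 paralogs by symbol among the members, 5 were lower than their partner in every line. *Rpl22l1*, whose mRNA the *Rpl22* protein is known to repress, had 10.4% to 23.8% of the signal of *Rpl22*, with the highest value in CB XY 1. *Rpl10l* had 0.581% to 1.93% of that of *Rpl10*. Per kb, *Rpl7l1* had a mean signal of 11994 against 72282 for *Rpl7*, and *Rpl3l* 48.2 against 55650 for *Rpl3*. The exception was *Rps27l*, known as a p53 target, which had 22704 per kb against 531 for *Rps27*. It was the higher of the pair by signal in all 14 lines. Of the 50-base coding windows, 100% in *Rps27* and 48.3% in *Rps27l* occur exactly elsewhere in mm9. The part of this sharing in the order of the pair was not tested. *Rpsa*, a 40S protein that also acts as a laminin receptor, had a mean of 70294 and *Rplp0*, the base of the stalk, 72759, and neither passed the test in any comparison.

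The other parts of the translation machinery were read from lists. Of 43 genes of ribosome assembly, 3 were higher in XX than in XY lines and none lower, *Dkc1* (0.48), *Gnl3l* (0.54) and *Utp14a* (0.71), and these were the 3 X-linked genes of that list. *Dkc1* is the pseudouridine synthase of box H/ACA particles, *Gnl3l* a nucleolar GTPase and *Utp14a* a factor of 40S processing. None of 76 mitochondrial ribosomal proteins, none of which lies on the X chromosome, passed in that comparison, none of 13 translation factors of the TOP class, none of 13 genes of p53 and its targets and none of 7 snoRNA hosts (limma, with 1, 2, 2 and 0 genes at an unadjusted p under 0.05). Among all 15311 genes tested there, 3544 had an unadjusted p under 0.05. Of 14 genes that control the TOP class, only *Mycn* passed, lower in XX (-0.74). In BC XX against BC XY lines *Mrpl12* (-1.19), *Nob1* (-0.84), *Eif4b* (-0.44) and *Mycn* (-0.91) were lower and *Dkc1* (0.53) and *Ccng1* (0.94) higher, and in CB *Gnl3l* (0.73) was the only one of these lists to pass. Without CB XY 2 and 3, *Dkc1* was the only gene of these lists that passed in XX against XY, *Mycn* and *Ccng1* remained for BC XX against BC XY, and none passed in CB. In BC XX against BC XO lines *Mrpl12* (-1.64), *Nob1* (-1.06) and *Fbl* (-0.79) were lower and *Ccng1* (1.15) higher.

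Between the crosses, 9 of 43 assembly genes passed (6 higher in CB, 3 lower), 8 of 76 mitochondrial ribosomal proteins (7 higher, 1 lower), 2 of 13 TOP translation factors (1 each way), 3 of 14 genes that control the class (3 higher), 5 of 13 p53 genes (4 higher, 1 lower) and none of 7 snoRNA hosts (limma, with 1 at an unadjusted p under 0.05). Over all genes tested, 16.0% passed in this comparison, against 20.9% of the assembly list and a smaller share than 16.0% of the mitochondrial list. An unadjusted p under 0.05 was found for 5397 of 16261 genes. Without CB XY 2 and 3, 2 assembly genes (*Taf1c* and *Nob1*), 1 mitochondrial gene (*Mrpl34*), *Eif4ebp1* and 3 p53 genes (*Gdf15*, *Bbc3* and *Trp53inp1*) passed. In that setting CB XY 1 alone stands for the CB XY lines. *Taf1c*, *Nob1*, *Eif4ebp1* and *Gdf15* lie on chromosome 8, whose median was raised in CB XY 1 (0.33) and CB XX c (0.26). *Bbc3* and *Trp53inp1* lie on chromosomes 7 and 4. The part of chromosome 8 in these differences was not tested. With all lines, the largest differences were those of *Gdf15* (2.33) and *Bbc3* (2.06), both targets of p53, *Taf1c* (1.34), a factor of RNA polymerase I, *Rrs1* (1.09), a factor of 60S assembly, and *Rrp9* (1.00), a protein of the U3 particle. *Mrps12* (0.88) led the mitochondrial list. *Eif4ebp1* (0.82), the mTOR target that binds eIF4E, *Rptor* (0.49) and *Mtor* (0.35) were higher in CB. *Npm1* (-0.40), a nucleolar chaperone, and *Tpt1* (-0.49), a TOP mRNA, were lower. Of the 4 ribosomal protein genes outside the symbol rule, *Rpl36al* passed, lower in CB (-0.40), and none did without CB XY 2 and 3.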

How the data were processed

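Total RNA of 14 mouse ES cell lines had been depleted of ribosomal RNA, made into stranded libraries and read as single 50-base ends. The authors aligned reads to mm9 with TopHat2 and compared genes with Cuffdiff, per the submitters' processing notes and the methods, and deposited 1 signal per gene and line, that is, read numbers brought to a common depth. Libraries were made in batches to which lines are not assigned, so batches were not modelled. In each line 98.2% to 98.8% of values under 1000 steps were whole multiples of 1 step (tolerance 0.1), which was not exact enough to recover reads. Count models were therefore not used, and groups were compared with limma 3.58.1 (R 4.3.3, trended variance) on log2(signal + 5), which understates changes of low genes. P-values were adjusted by Benjamini-Hochberg over all genes tested. Tested were genes with a signal of 10 or more in at least 6 lines (XX against XY) or 2 lines (a model of 5 groups on all 14 lines). Not tested were 15 genes (0 members) at 0 throughout 1 group but at 100 or more elsewhere. P-values measure the spread between lines.

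Members and lists were chosen with earlier results of these data known. Coordinates and coding sequences came from GENCODE annotation of NCBIM37 (mm9), and the coding length replaced the exon length intended for levels per kb, since transcript models of several members were uncertain. Each 50-base window of a coding sequence was looked up on both strands of the genome. Genes named are the X-linked members, paralogs with their partners, *Rpsa* and the stalk proteins, the 5 largest called members in each direction per comparison, the 3 highest and lowest per kb, the 3 with the largest and smallest SD, and members listed at 0. *Rpl5*, *Rpl30* and genes of the lists were named after their values were seen. Alternatives changed scaling, pseudocount, filter, covariates and lines. The steps were tested on simulated data. Python 3.11.15 was used for joins and figures.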

Additional observations from a re-analysis of the deposited data

Results flagged for a closer look

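Among 33 quantities in the 6 XX and the 6 XY lines, 66 groups in all, 5 had a line that stood apart by Dixon's test, and chance alone gives about 1 in 20. In the XY lines CB XY 1 was highest for *Rpl13* (56212, others 22310 to 31884), *Rps26* (22207, others 13999 to 16367), *Rps27* (776, others 47.0 to 153) and *Rpl26* (321, others 0 to 34.7). In the XX lines CB XX a was highest for *Rpl26* (226, others 10.1 to 31.7).

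The pseudogene row *Rpl34-ps1*, which no comparison of members used, held 16074 in CB XY 1 and 94.6 to 1846 in the other lines, while *Rpl34* was lowest in CB XY 1.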

How the results depend on the processing

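Among 31 differences of single members none changed direction, and of 732 values under the alternatives 484 stayed on the same side of the threshold while 248 no longer passed. Counts of called members (limma) moved as follows, and the cause was not tested. With no filter beyond a value above 0, the count fell from 4 to 1 for XX against XY, from 18 to 11 for CB against BC, from 3 to 1 for BC XX against BC XY and from 2 to 0 for BC XX against BC XO. The share of all genes called then was 3.27%, 10.2%, 3.35% and 1.93% for these 4 comparisons. Without the lines labelled CB XY 2 and 3 the count was 0 for XX against XY and 1 for BC XX against BC XY. Comparisons that use CB XY as a group of its own then rest on CB XY 1 alone. Of all genes, 2.01% passed without CB XY 2 and 3 for XX against XY and 4.56% for BC XX against BC XY. With the fibroblast markers as a covariate the count was 0, 8, 0 and 0 for XX against XY, CB against BC, BC XX against BC XY and BC XX against BC XO. The shares of all genes were 2.36%, 5.95%, 0.0492% and 0.0553%. Without CB XX c and CB XY 1 the count was 0 for XX against XY and 0 for CB XX against CB XY, where 1.67% and 1.42% of all genes passed. After the GC correction the count was 6 for CB against BC, where 7.05% of all genes passed. With this correction and without the lines labelled CB XY 2 and 3 it was 1 (*Rpl13a*, lower in XX) for XX against XY, where 2.56% passed. For CB against BC that setting leaves CB XY 1 alone for the CB XY lines. These last 3 alternatives, and the covariate outside XX against XY and CB against BC, were chosen after seeing the data. Without the 100 highest genes of each line the members' median share was 3.10% instead of 8.15%, since the members among these genes are then left out too, and the order of lines changed, with 3.15% in BC XX 3, 2.97% in BC XX 1 and 2.87% in CB XY 1.

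Leaving out 1 line at a time gave 1 to 7 calls for XX against XY (7 without CB XX a), 9 to 24 for CB against BC (9 without CB XX a, 24 without BC XX 1), 0 to 21 for BC XX against BC XY (0 without BC XX 3, BC XY 2 or BC XY 3, 21 without BC XX 1), 1 to 3 for CB XX against CB XY and 0 to 20 for BC XX against BC XO (20 without BC XX 1). In BC XX and BC XY lines fitted alone, a replicate block on the line number left 0 members called, against 1 without it, and deviations of same-numbered lines correlated at -0.17, 0.27 and -0.05 over 15734 genes, so that the lines share a number only. No paired analysis was possible for the CB lines because the numbers of the CB XX columns do not match those of the labelled lines. A count model with edgeR had been planned and was not run, since whole reads could not be recovered.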

Other observations

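The row named *Rps4y2* is listed by RefSeq under the symbol *Rps4l*, as a transcribed pseudogene on chromosome 6, and was not a member by the symbol rule. Its mean signal was 7526, against 64979 for *Rps4x*. It had 4419, 3825 and 1078 in BC XX, 4801, 4225 and 3673 in BC XY, 6663 and 5805 in BC XO, 17682, 9638 and 3772 in CB XX and 11150, 15728 and 12908 in CB XY lines. It was read in XX, XY and XO lines alike and was highest in CB XX a and CB XY 2. The median of all genes on chromosome 6 was 0.23 and 0.29 above its mean over lines (log2) in these 2 lines and 0.25 in CB XY 3, and -0.15 to 0.12 in the other 11. The gene was named after its values were seen.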
